A study of Mus musculus with 24 samples.

Results

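Adenylyl cyclases make the second messenger cyclic AMP from ATP. The 8 genes described here are Adcy1, Adcy2, Adcy3, Adcy5, Adcy6, Adcy7, Adcy8 and Adcy9, each found by its symbol among the 51912 genes of a table of read counts from mouse hippocampus. RNA was sequenced from the ventral and the dorsal hippocampus of 12 C57BL/6J offspring, with both regions taken from each animal, to compare animals by what their sires had received. The 24 libraries formed 8 groups of 3: offspring of nicotine-treated sires (nicotine-sired) and of saline-treated sires (saline-sired), male and female, ventral and dorsal. All offspring shared the C57BL/6J background and no label gives them a treatment of their own. The sires' treatment was chronic. The sources used here do not give its dose, route or length, the age of the offspring, the number of sires or whether animals of 1 group were littermates, so p-values measure the spread between these animals. The letters A, B and C name the 3 animals of a group, and each of the 4 groups of sire treatment and sex has its own number in the library titles, whose meaning no label states, so whatever it marks and those groups cannot be told apart.

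Membrane-bound adenylyl cyclases are switched on by the stimulatory G protein Gs, and they differ in what else they respond to. Adcy1, Adcy3 and Adcy8 encode forms that respond to calcium and calmodulin, Adcy2 and Adcy7 encode forms that are further stimulated by G protein beta-gamma subunits, Adcy5 and Adcy6 encode forms that calcium and the inhibitory G protein Gi restrain, and Adcy9 encodes a form with little sensitivity to the plant compound forskolin. In the mouse hippocampus the calcium-stimulated cyclases are known for their part in synaptic plasticity and memory, through cyclic AMP, protein kinase A and CREB-dependent transcription.

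Libraries held between 32049770 and 47486547 counts. All 8 genes passed the low-count filter in the ventral fit, in the dorsal fit and in the fit of all libraries. Markers of hippocampal neurons, taken as a sum, were present in every library. For 5 CA1 pyramidal cell genes the sum was 571 to 732 counts scaled to a common library size of 1000000 (CPM) in ventral libraries. It was 488 to 762 CPM in dorsal libraries. Choroid plexus epithelium, a tissue next to the hippocampus, varied most among the cell types listed: its 13 markers summed to 49.4 to 1990 CPM in ventral and 64.2 to 5680 CPM in dorsal libraries, and 2 ventral and 6 dorsal libraries stood apart as rich in them. The tests below of sire treatment and of region were rerun without those 8 libraries. Levels, ratios within animals, marker sums and correlations were not.

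Levels of different genes were compared as CPM per kilobase of exon (RPKM). The calcium-stimulated cyclase Adcy1 had the highest level in both regions, at 42.8 ± 5.87 RPKM in ventral and 72.7 ± 8.80 RPKM in dorsal libraries (SD, n = 12 each). Adcy2 followed, with 28.7 ± 1.70 RPKM in ventral and 33.6 ± 1.603 RPKM in dorsal libraries, and Adcy5 came next, with 18.9 ± 0.961 RPKM in ventral and 14.5 ± 1.58 RPKM in dorsal libraries. These 3 genes held the top places of the order in both regions. The range of Adcy1 over ventral libraries (31.3 to 54.5 RPKM) overlapped that of Adcy2 (25.3 to 31.5 RPKM), whereas the dorsal ranges were apart. Within each ventral library Adcy1 was still the highest of the 8.

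Adcy3 and Adcy9 formed the middle of the order. Adcy3 had 9.85 ± 0.907 RPKM in ventral and 7.31 ± 0.984 RPKM in dorsal libraries. Adcy9 had 7.28 ± 1.59 RPKM in ventral and 8.63 ± 1.24 RPKM in dorsal libraries. The ranges of the pair overlapped in both regions. Within a library, however, Adcy3 was above Adcy9 in 12 of 12 ventral libraries and below it in 10 of 12 dorsal libraries. Adcy6 was at 4.83 ± 0.369 RPKM in ventral and 3.53 ± 0.561 RPKM in dorsal libraries, and its ventral range overlapped that of Adcy9, which was the higher of both within each of the 12 ventral libraries. Adcy8 was at 2.65 ± 0.505 RPKM in ventral and 1.90 ± 0.337 RPKM in dorsal libraries. Adcy7 was the lowest, at 0.312 ± 0.0484 RPKM in ventral and 0.271 ± 0.0421 RPKM in dorsal libraries, and rested on 62 to 101 reads in a ventral and 54 to 105 reads in a dorsal library. As a share of the summed RPKM of the 8 genes, Adcy1 made up 37.0 ± 2.47% in ventral and 50.9 ± 2.82% in dorsal libraries. The 2 cyclase genes outside the set were low: Adcy4 had 1.66 to 4.01 CPM in ventral and 2.103 to 4.741 CPM in dorsal libraries, and Adcy10, the soluble bicarbonate-stimulated form, had 0 to 8 reads in ventral and 0 to 7 reads in dorsal libraries and did not pass the filter.

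**Figure D1:**
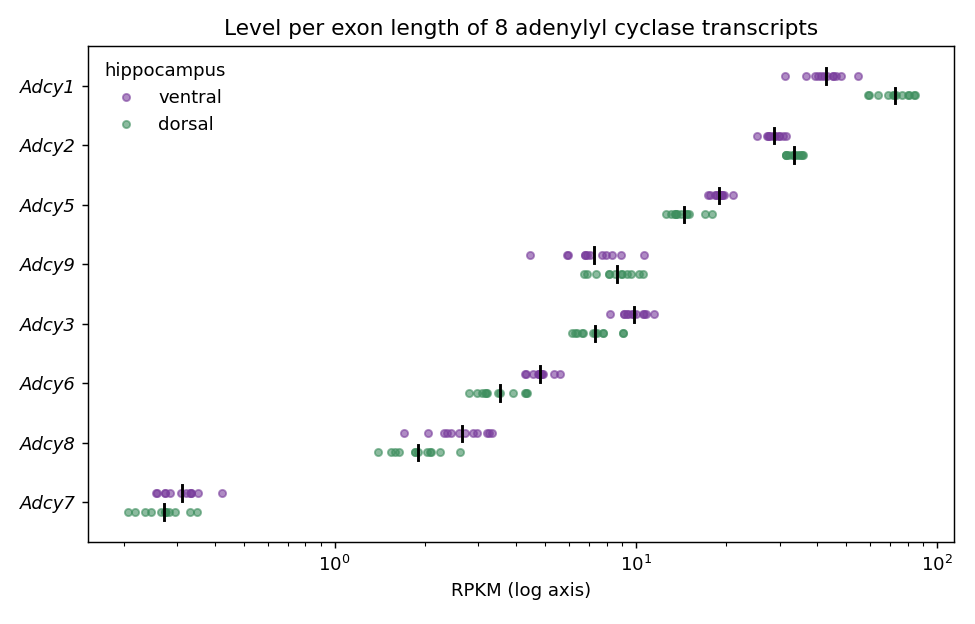
RPKM of the 8 adenylyl cyclase genes on a log axis, ventral libraries above dorsal libraries for each gene; each point is 1 library and each black tick the mean of 12. Adcy1 lies at the top in both regions (42.8 RPKM in ventral and 72.7 RPKM in dorsal libraries) and Adcy7 at the bottom (0.312 RPKM in ventral and 0.271 RPKM in dorsal libraries).

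The sequence upstream of the transcription start is shown for the 3 most abundant cyclases, to place these genes' annotated starts beside their levels; which starts were used was not measured. Sequences are RefSeq's for GRCm38.p6, 250 bases 5′ to 3′ on the gene's strand, and RefSeq held an entry for 6 of the 8 genes, Adcy6 and Adcy8 being without one. Capitals mark the GC box (GGGCGG or its complement CCGCCC) and, in Adcy2, a CCAAT box (CCAAT).

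Adcy1 (chr11:7063183-7063432, plus strand): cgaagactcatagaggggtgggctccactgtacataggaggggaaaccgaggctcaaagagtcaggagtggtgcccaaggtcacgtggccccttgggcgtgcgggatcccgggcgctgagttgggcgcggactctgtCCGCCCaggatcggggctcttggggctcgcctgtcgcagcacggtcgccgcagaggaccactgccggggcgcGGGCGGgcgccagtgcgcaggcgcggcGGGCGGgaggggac

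Adcy2 (chr13:68999542-68999791, minus strand): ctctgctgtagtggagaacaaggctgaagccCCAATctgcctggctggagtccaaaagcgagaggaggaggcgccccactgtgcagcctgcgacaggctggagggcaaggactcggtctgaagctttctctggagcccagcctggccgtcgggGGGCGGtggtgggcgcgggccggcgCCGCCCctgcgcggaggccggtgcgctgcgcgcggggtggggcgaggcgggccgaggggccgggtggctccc

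Adcy5 (chr16:35154614-35154863, plus strand): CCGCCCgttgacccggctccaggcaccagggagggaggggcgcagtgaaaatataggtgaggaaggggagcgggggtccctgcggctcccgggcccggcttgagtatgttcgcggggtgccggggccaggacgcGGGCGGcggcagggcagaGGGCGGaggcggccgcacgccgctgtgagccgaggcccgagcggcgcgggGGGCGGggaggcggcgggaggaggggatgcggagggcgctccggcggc

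These windows are rich in G and C, with a GC content of 71.2% for Adcy1, 73.2% for Adcy2 and 78.0% for Adcy5. They hold 3, 2 and 4 GC boxes on either strand, a motif found in 32.7% of 32851 RefSeq windows of the same length, and the single CCAAT box is in a class found in 33.8% of windows. The full cyclic AMP response element (TGACGTCA, both strands), which is present in 1.55% of windows, was in none of the 9 windows of the 6 genes. These are matches of letters only.

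The ventral and the dorsal hippocampus differed in the cyclases they carried. By edgeR's quasi-likelihood test on all 24 libraries, 6 of the 8 genes passed an adjusted p of 0.05, 4 of them (Adcy3, Adcy5, Adcy6 and Adcy8) higher and 2 (Adcy1 and Adcy2) lower in ventral than in dorsal hippocampus. Over all 19849 genes tested, 29.2% passed, 14.3% higher and 14.9% lower in ventral hippocampus. That fit had no term for the animal, so it did not use the pairing of the libraries. With the animal as a block Adcy9 passed as well, and 7042 of the 19849 genes were called. The median log2 fold change, ventral over dorsal, was 0.30 for the 8 genes and -0.006 for all genes. Each of the 6 moved the same way in 12 of 12 animals, and each of the 6 calls held when any 1 animal was left out. In bulk tissue, fewer cells of a type and less RNA per cell cannot be told apart.

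Among the calcium-responsive forms, Adcy1 (ENSMUSG00000020431, chr11:7063489-7178506, plus strand, GRCm38) showed the largest shift of the 8 genes. It ranged from 391.7 CPM through a median of 534.7 CPM to 683.0 CPM over the 12 ventral libraries, against 739.8, 906.1 and 1056 CPM over the 12 dorsal libraries. Every ventral library lay below every dorsal library, which held for no other member. The log2 fold change was -0.77 ± 0.07 (standard error), a ventral level 0.588 times the dorsal one (adjusted p = 2.32e-07). Within animals it ran from -1.03 in saline-sired male B to -0.47 in saline-sired female C.

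Adcy3 (ENSMUSG00000020654, chr12:4133103-4213525, plus strand), the cyclase of olfactory neurons and of neuronal primary cilia, went the other way. Its lowest, median and highest levels were 51.1, 60.8 and 71.8 CPM in ventral libraries, against 38.5, 45.4 and 56.5 CPM in dorsal libraries. The regions overlapped through 2 high dorsal libraries, saline-sired male C and saline-sired female C, at 56.5 CPM each. Ventral over dorsal, the log2 fold change was 0.43 ± 0.06 (adjusted p = 9.41e-06). Cenpo, a kinetochore gene on the opposite strand, shares 1380 bp of exon with Adcy3; it had 44 to 110 reads in ventral and 48 to 107 reads in dorsal libraries, far below the 1984 to 2897 reads of Adcy3 in ventral and 1342 to 2259 reads in dorsal libraries. The sources used here do not say whether reads were counted by strand.

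Adcy8 (ENSMUSG00000022376, chr15:64697084-64922296, minus strand), the other calcium-stimulated form known from mouse memory studies, was higher in ventral hippocampus but scattered widely. It ranged from 13.9 CPM through 21.7 CPM to 27.2 CPM in ventral libraries, against 11.4, 15.3 and 21.3 CPM in dorsal libraries. The regions overlapped, although the ventral library was the higher one in each animal, by 0.18 on the log2 scale in saline-sired female C and by 1.07 in saline-sired female A. The log2 fold change was 0.48 ± 0.11 (adjusted p = 0.00170). Without the 8 libraries rich in choroid plexus, a setting chosen after seeing the data, it was 0.56 ± 0.18 and the call ended (adjusted p = 0.0588).

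Of the forms stimulated by beta-gamma subunits, Adcy2 (ENSMUSG00000021536, chr13:68620043-68999541, minus strand) was lower in ventral hippocampus by a small and even step. Its lowest, median and highest levels were 106.6, 121.0 and 132.8 CPM in ventral libraries, against 132.2, 141.4 and 150.6 CPM in dorsal libraries. The ranges met at a single point, where the highest ventral library (saline-sired male C, 132.8 CPM) passed the lowest dorsal one (saline-sired female C, 132.2 CPM). The log2 fold change was -0.23 ± 0.03 (adjusted p = 2.31e-05), with the smallest standard error of the 8. A noncoding antisense gene, Gm35161, shares 189 bp of exon with Adcy2 and had at most 84 reads in a ventral and 257 reads in a dorsal library, against at least 3410 reads of Adcy2 in a ventral and 4469 in a dorsal library.

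Adcy7 (ENSMUSG00000031659, chr8:88272403-88329962, plus strand) did not pass. It had 1.72, 2.12 and 2.86 CPM as lowest, median and highest level in ventral libraries, against 1.38, 1.84 and 2.35 CPM in dorsal libraries, and was higher in the ventral library of 7 of 12 animals. The log2 fold change was 0.21 ± 0.09, with a 95% interval of 0.02 to 0.40 (adjusted p = 0.0937).

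The 2 cyclases that calcium inhibits were higher in ventral hippocampus by like amounts. Adcy5 (ENSMUSG00000022840, chr16:35154877-35305738, plus strand), best known as the main form of striatum, had 124.6, 137.1 and 150.8 CPM as lowest, median and highest level in ventral libraries, against 90.2, 99.9 and 129.0 CPM in dorsal libraries. The overlap came from 1 dorsal library, saline-sired female C, since the next highest dorsal library (saline-sired male C, 121.6 CPM) lay below every ventral one. The regions differed by a log2 fold change of 0.39 ± 0.05 (adjusted p = 2.77e-06). The 8 markers of striatal medium spiny neurons, cells rich in Adcy5, summed to 62.0 to 121 CPM in ventral and 59.8 to 121 CPM in dorsal libraries, with medians of 78.2 CPM in ventral and 83.0 CPM in dorsal libraries, and 4 of the 8 were higher on average in ventral libraries. Their part in the difference was not tested.

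Adcy6 (ENSMUSG00000022994, chr15:98589973-98610076, minus strand), a close relative of Adcy5 found in many tissues, had 29.1, 32.6 and 38.0 CPM as lowest, median and highest level in ventral libraries, against 19.0, 22.7 and 29.6 CPM in dorsal libraries. The regions met at 3 dorsal libraries, saline-sired males A and C and saline-sired female C, at 29.1 to 29.6 CPM. This gave a log2 fold change of 0.45 ± 0.07 (adjusted p = 3.39e-05). The antisense gene Gm29331 shares 605 bp of exon with Adcy6 and had at most 5 reads in a ventral and 6 reads in a dorsal library.

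Adcy9 (ENSMUSG00000005580, chr16:4287529-4420498, minus strand) scattered widely among ventral libraries. Its lowest, median and highest levels were 23.2, 36.2 and 55.2 CPM in ventral libraries, against 35.0, 45.5 and 55.1 CPM in dorsal libraries. Both ends of the ventral range came from nicotine-sired males, animal B at 23.2 CPM and animal A at 55.2 CPM. Adcy9 was lower in the ventral library of 10 of 12 animals, and the log2 fold change of -0.25 ± 0.11 did not pass (adjusted p = 0.107). With the animal as a block, which uses the pairing of the libraries, it was -0.26 ± 0.07 and passed (adjusted p = 0.0136), giving 7 of 8 genes called. It also passed without nicotine-sired male A, at -0.31 (adjusted p = 0.0362).

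**Figure D2:**
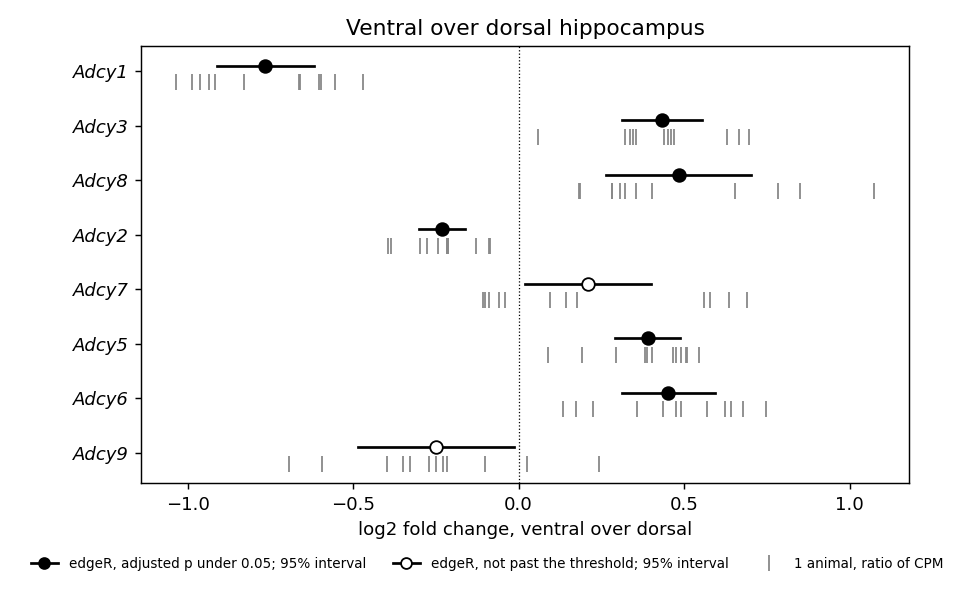
Log2 fold change of each adenylyl cyclase gene, ventral over dorsal, with its 95% interval from edgeR; filled circles passed an adjusted p of 0.05, and each tick below a gene is the log2 ratio of 1 of 12 animals. Adcy1 (-0.77) and Adcy2 (-0.23) lie left of 0 in every animal, and Adcy3, Adcy5, Adcy6 and Adcy8 (0.39 to 0.48) right of 0 in every animal.

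One animal carried the smallest step between regions for 5 of the 6 genes called. Saline-sired female C had within-animal log2 ratios of -0.47 for Adcy1, 0.06 for Adcy3, 0.09 for Adcy5, 0.13 for Adcy6 and 0.18 for Adcy8. Its dorsal library had the highest Adcy5 level of the 12 and the lowest summed oligodendrocyte marker level, 5000 CPM over 8 genes against a dorsal median of 7260 CPM. Its dorsal sum of dentate granule cell markers was 348 CPM, against a dorsal median of 451 CPM and a minimum of 278 CPM. Its ventral library had the highest ventral sums of oligodendrocyte markers (4910 CPM) and of CA3 and CA2 markers (425 CPM). For dentate granule cell markers that library had 264 CPM, against a ventral median of 242 CPM. The part of these marker levels in the small steps was not tested. This animal was picked for its small steps, so leaving it out had to make the 5 log2 fold changes larger in size. They were then -0.80 for Adcy1, 0.46 for Adcy3, 0.43 for Adcy5, 0.50 for Adcy6 and 0.53 for Adcy8.

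Cell type markers moved between the regions too. The 7 markers of dentate granule cells were all lower in ventral than in dorsal libraries on average and summed to 149 to 283 CPM in ventral and 278 to 578 CPM in dorsal libraries. The 8 oligodendrocyte markers were likewise all lower, with sums of 3570 to 4910 CPM in ventral and 5000 to 9200 CPM in dorsal libraries. For CA3 and CA2 pyramidal cells 1 of 6 markers was higher on average in ventral libraries, with sums of 311 to 425 CPM in ventral and 382 to 583 CPM in dorsal libraries. The 5 CA1 markers overlapped between the regions, at 571 to 732 CPM in ventral and 488 to 762 CPM in dorsal libraries. Each marker of these lists had reads in at least 1 library of each region. The part of cell makeup in the cyclase differences was not tested.

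**Figure D3:**
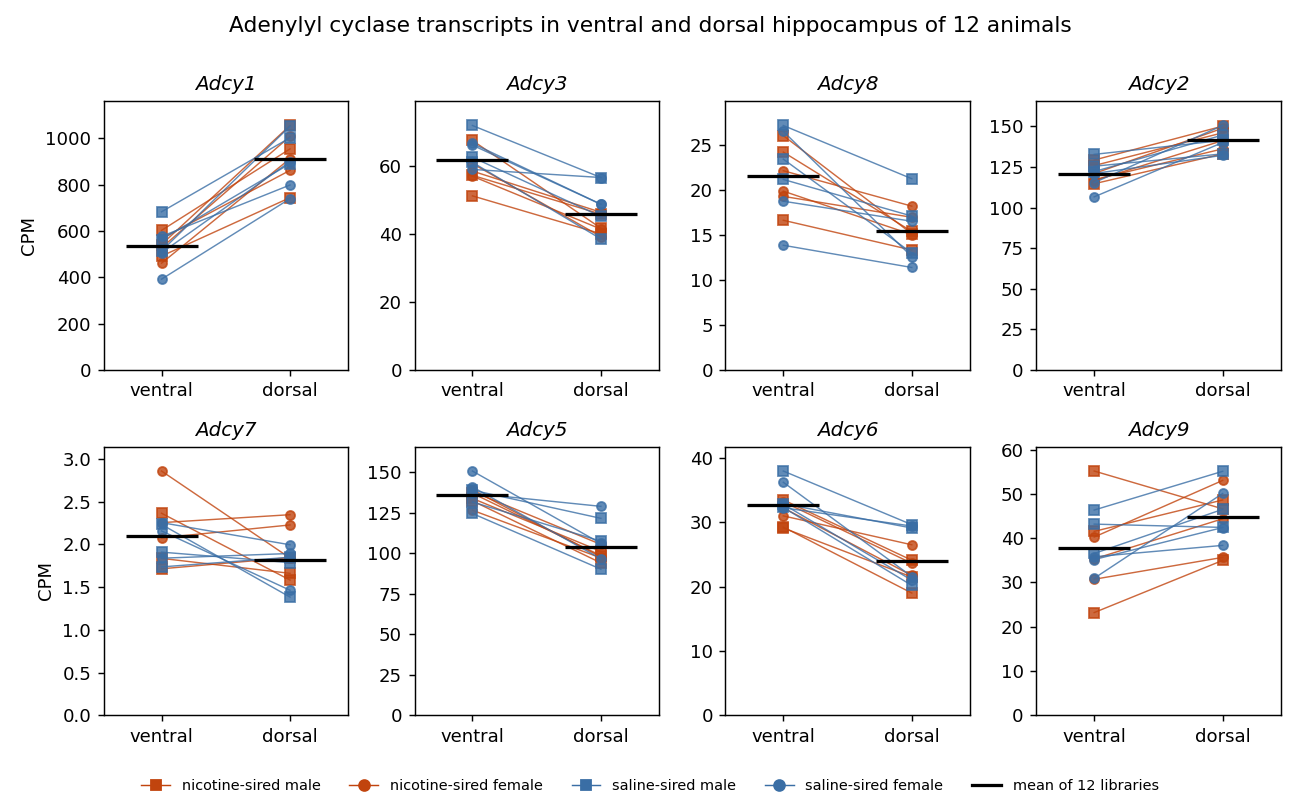
CPM of each adenylyl cyclase gene in all 24 libraries, 1 panel per gene with its own axis from 0, ventral left of dorsal; a line joins the libraries of 1 animal, colour gives the sire's treatment, squares are males and circles females, and black bars are means of 12 libraries. Adcy1 lies at 391.7 to 683.0 CPM in ventral and 739.8 to 1056 CPM in dorsal libraries, and the animals' lines cross most for Adcy7 and Adcy9.

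The sires' treatment was not followed by a detected change of any cyclase. In ventral hippocampus 0 of the 8 genes passed in nicotine-sired against saline-sired offspring over both sexes, where 1.75% of 19224 genes did, and likewise 0 in males, where 3.21% of genes passed, and 0 in females, where 0.0312% passed. In dorsal hippocampus 0 of 8 passed over both sexes, where 0.0784% of 19130 genes did, 0 in males (1.78% of genes) and 0 in females (0.0314% of genes). An unadjusted p under 0.05 was reached by 0, 0 and 0 of the 8 genes in these ventral comparisons and by 1, 0 and 1 in the dorsal ones. The DESeq2 Wald test called 0 of the 8 in each of them. At such backgrounds a count of 0 among 8 genes does not set the cyclases apart from other genes.

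Over both sexes, the log2 fold changes of the 8 genes lay between -0.14 and 0.10 in ventral hippocampus, nicotine-sired over saline-sired, with a median of -0.02 against 0.006 over all genes. In dorsal hippocampus they lay between -0.20 and 0.14, with a median of -0.02 against 0.002 over all genes. The widest 95% bounds among the 8 were -0.41 and 0.40 in ventral and -0.40 and 0.44 in dorsal hippocampus, so changes of single cyclases within those bounds were not resolved with 6 animals a side. Adcy2 was the most tightly bounded in dorsal hippocampus, at 0.03 with an interval of -0.08 to 0.13, and Adcy5 in ventral hippocampus, at -0.03 with an interval of -0.13 to 0.07. A p that misses the threshold does not show that the sire groups were alike.

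**Figure D4:**
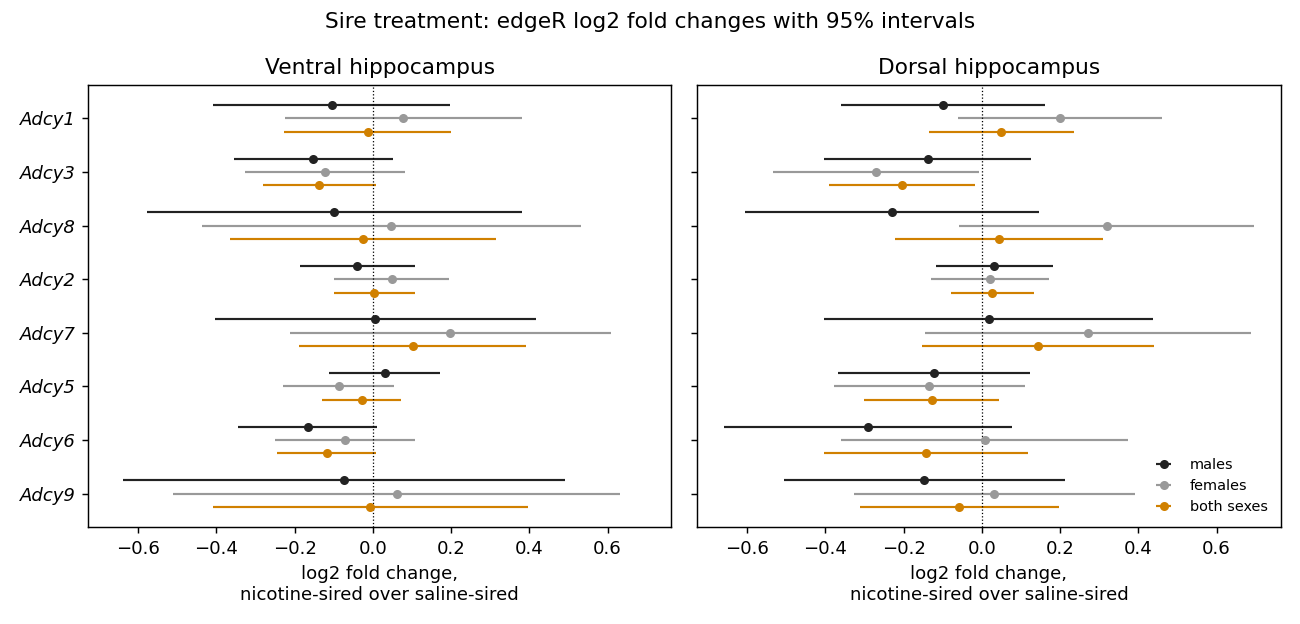
Log2 fold change of each adenylyl cyclase gene, nicotine-sired over saline-sired, with 95% intervals from edgeR in ventral and dorsal hippocampus, for both sexes together and for males and females apart. None passed an adjusted p of 0.05, and Adcy3 lies left of 0 in each comparison (-0.12 to -0.27).

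Adcy3 came nearest to a call. In ventral hippocampus it had 67.4, 51.1 and 57.1 CPM in nicotine-sired males A, B and C and 58.4, 60.6 and 56.9 CPM in nicotine-sired females, against 60.9, 62.4 and 71.8 CPM in saline-sired males and 66.0, 66.5 and 58.9 CPM in saline-sired females. In dorsal hippocampus it had 41.6, 40.0 and 45.7 CPM in nicotine-sired males and 46.3, 39.1 and 41.3 CPM in nicotine-sired females, against 38.5, 45.1 and 56.5 CPM in saline-sired males and 48.6, 48.6 and 56.5 CPM in saline-sired females. The sire groups overlapped in both regions. In dorsal hippocampus the 3 nicotine-sired females all lay below the 3 saline-sired females. That order is no separate support, and how many of all genes were likewise apart was not counted. The log2 fold change over both sexes was -0.14 ± 0.07 in ventral hippocampus (adjusted p = 0.346) and -0.20 ± 0.09 in dorsal hippocampus (unadjusted p = 0.0343, adjusted p = 0.424). In dorsal females it was -0.27 ± 0.12 (unadjusted p = 0.0457, adjusted p = 0.366). With 1 animal left out, the dorsal value over both sexes ran from -0.26 (without saline-sired male A) to -0.13 (without saline-sired male C). In dorsal males it was -0.14, and 0.02 without saline-sired male C. Without the libraries rich in choroid plexus the dorsal value over both sexes was -0.11, with 1 library in each nicotine-sired group.

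Adcy1, the most abundant form, had 460.8, 534.7 and 602.6 CPM as lowest, median and highest level in the ventral libraries of nicotine-sired animals, against 391.7, 538.7 and 683.0 CPM in those of saline-sired animals. Its dorsal values were 744.1, 933.8 and 1056 CPM in nicotine-sired against 739.8, 895.2 and 1053 CPM in saline-sired animals. The sire groups overlapped almost wholly. Nicotine-sired over saline-sired, the log2 fold change was -0.01 ± 0.10 in ventral (adjusted p = 0.966) and 0.05 ± 0.09 in dorsal hippocampus (adjusted p = 0.869).

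The other members gave similar pictures. Adcy6 had 29.1, 31.6 and 33.5 CPM as lowest, median and highest ventral level in nicotine-sired against 32.3, 32.8 and 38.0 CPM in saline-sired animals, a log2 fold change of -0.12 ± 0.06 (adjusted p = 0.350). Adcy9 spread most among ventral libraries of nicotine-sired animals, from 23.2 to 55.2 CPM, against 31.0 to 46.4 CPM in saline-sired animals, with a log2 fold change of -0.01 ± 0.18 (adjusted p = 0.992). Adcy7 was the member with the highest fold change over both sexes in each region, at 0.10 ± 0.14 in ventral and 0.14 ± 0.14 in dorsal hippocampus, on the fewest reads. None of these differences exceeded the spread between animals at the threshold used.

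Choroid plexus markers differed between the sire groups in the same libraries, with a median sum of 1840 CPM in dorsal libraries of nicotine-sired and 160 CPM in those of saline-sired animals, although the ranges overlapped (67.3 to 5680 CPM in nicotine-sired and 64.2 to 5600 CPM in saline-sired animals). Adjusting the fits for the level of these markers brought no call of a cyclase in any comparison of sire treatment. Leaving out the libraries rich in them cannot decide whether choroid plexus matters here. That kept 1 library in each nicotine-sired dorsal group and 1 in ventral nicotine-sired females, so no result is drawn from its calls.

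Whether the response to sire treatment differed between the sexes was tested as the female minus the male log2 fold change. In ventral hippocampus 0 of the 8 genes passed, against 1.07% of all genes, and in dorsal hippocampus 0 passed, against 2.24% of all genes, with 0 and 1 of the 8 at an unadjusted p under 0.05 and 0 by the DESeq2 Wald test in both. The 1 gene was Adcy8. It had 18.2, 15.0 and 17.0 CPM in dorsal libraries of nicotine-sired females A, B and C, against 12.6, 11.4 and 16.5 CPM in saline-sired females. In males it had 15.4, 15.1 and 13.3 CPM in nicotine-sired, against 17.1, 12.99 and 21.3 CPM in saline-sired animals. The groups overlapped within each sex. The log2 fold change was 0.32 ± 0.17 in females (adjusted p = 0.440) and -0.23 ± 0.17 in males (adjusted p = 0.519), and the difference of 0.55 ± 0.24 did not pass (unadjusted p = 0.0440, adjusted p = 0.236). In ventral hippocampus the same difference was 0.15 ± 0.31 for Adcy8 (adjusted p = 0.875).

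The response to sire treatment was also compared between the regions, as the ventral minus the dorsal log2 fold change. By edgeR's test 0 of the 8 genes passed, as did 0.0% of 19849 genes, with 0 of the 8 and 945 of all genes at an unadjusted p under 0.05, and the DESeq2 Wald test called 0 genes. The differences lay between -0.07 for Adcy8 and 0.10 for Adcy5, with widest 95% bounds of -0.51 and 0.53.

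The rest of the cyclic AMP pathway was followed through 10 lists of 78 genes, of which 77 were tested. Between regions, 24 of the 77 were higher and 15 lower in ventral than in dorsal hippocampus, beside the 29.2% of all genes, and their median log2 fold change was 0.05. Upstream of the cyclases, 4 of 7 G protein alpha subunit genes were higher and 0 lower, and 1 of the 4 calls ended without some single animals. Gnas, which encodes the stimulatory subunit that activates the cyclases, averaged 1526 ± 81.9 CPM in ventral and 1365 ± 62.2 CPM in dorsal libraries (SD, n = 12 each), a log2 fold change of 0.16 ± 0.04 (adjusted p = 0.00149). Gnaz (0.18 ± 0.04) and Gnai1 (0.18 ± 0.05), both of the inhibitory class, were higher by like amounts.

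Of 16 genes for receptors that couple to Gs, 4 were higher and 1 was lower, in either direction a share near the 29.2% of all genes. Of the 4 calls 1, that of the prostaglandin receptor gene Ptger4, ended in 10 of the 12 fits without 1 animal. Adcyap1r1, the receptor for the neuropeptide PACAP, averaged 183.5 ± 11.9 CPM in ventral and 150.8 ± 13.97 CPM in dorsal libraries (0.28 ± 0.04, adjusted p = 1.74e-05). Htr7, a serotonin receptor, averaged 10.01 ± 1.42 CPM in ventral and 6.41 ± 1.29 CPM in dorsal libraries (0.66 ± 0.09, adjusted p = 1.98e-05). Drd5, a dopamine receptor, was the one that was lower, at 10.9 ± 3.16 CPM in ventral and 17.4 ± 4.32 CPM in dorsal libraries (-0.68 ± 0.17, adjusted p = 0.00691). Of the 3 calmodulin genes, whose protein carries the calcium signal to Adcy1 and Adcy8, Calm3 (-0.16 ± 0.04) and Calm2 (-0.15 ± 0.05) were lower in ventral hippocampus and none was higher.

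**Figure D5:**
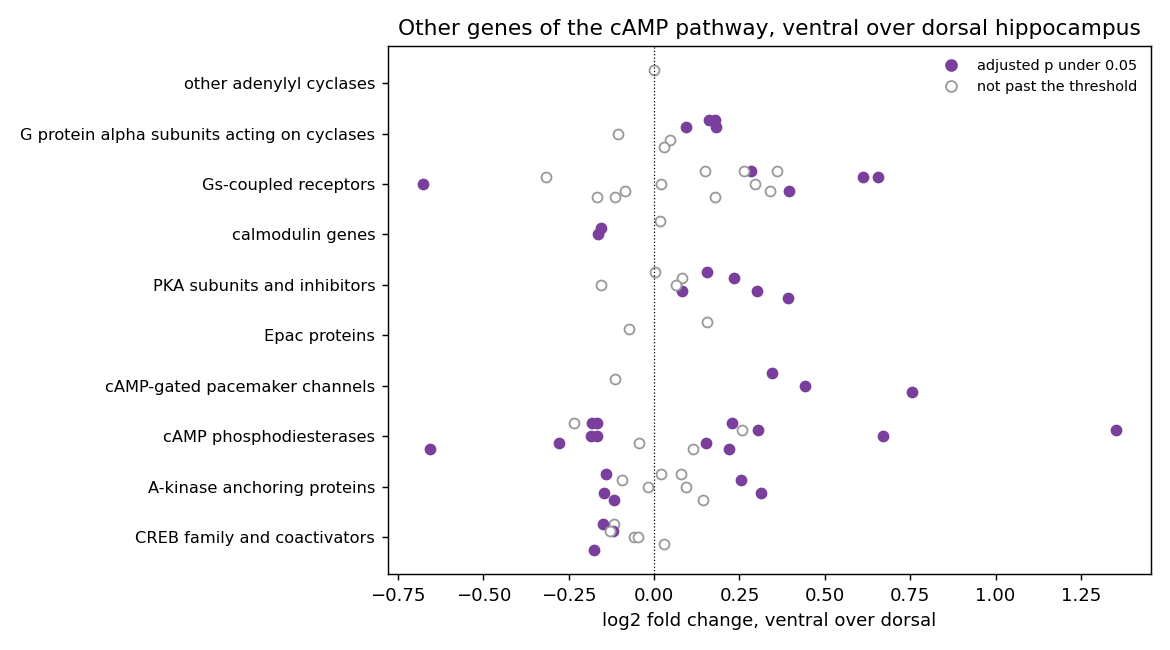
Log2 fold changes, ventral over dorsal, of the tested genes of the 10 cyclic AMP pathway lists, 1 row per list; each point is a gene, filled where it passed an adjusted p of 0.05. The pacemaker channel and PKA rows have filled points only right of 0, the calmodulin and CREB rows only left of 0, and the phosphodiesterase row on both sides, from -0.66 for Pde8a to 1.35 for Pde11a.

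Downstream of cyclic AMP, 5 of 9 genes for protein kinase A subunits and inhibitors were higher in ventral hippocampus and 0 lower. The 5 were all subunit genes, and no inhibitor gene passed. Over all genes 14.3% were higher and 14.9% lower. The catalytic subunit gene Prkacb averaged 327.5 ± 44.9 CPM in ventral and 250.5 ± 51.3 CPM in dorsal libraries (0.39 ± 0.08, adjusted p = 0.00123), and the regulatory subunit gene Prkar1a had a log2 fold change of 0.15 ± 0.03 (adjusted p = 7.57e-04). Those 2 calls held in every fit without 1 animal, and the other 3 each ended in at least 4 of the 12. Of 4 pacemaker channel genes, whose channels cyclic nucleotides gate, 3 were higher, among them Hcn3 (0.44 ± 0.06) and Hcn4 (0.75 ± 0.21, at 3.06 ± 0.916 CPM in ventral and 1.89 ± 1.08 CPM in dorsal libraries). Neither of the 2 Epac genes passed.

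The phosphodiesterases, which degrade cyclic nucleotides, went both ways, with 6 of 16 genes higher and 6 lower. Of these calls, 1 of the higher and 3 of the lower ended without some single animals. The shares over all genes, 14.3% higher and 14.9% lower, also stand beside the 2 lists that follow. Pde11a averaged 8.03 ± 1.39 CPM in ventral and 3.21 ± 1.41 CPM in dorsal libraries, a log2 fold change of 1.35 ± 0.16 (adjusted p = 4.14e-06). Pde1a, a calmodulin-dependent form, averaged 185.0 ± 21.4 CPM in ventral and 116.1 ± 20.1 CPM in dorsal libraries (0.67 ± 0.08, adjusted p = 7.88e-06). Pde8a was lower, at 13.2 ± 1.18 CPM in ventral and 20.8 ± 3.22 CPM in dorsal libraries (-0.66 ± 0.06, adjusted p = 2.09e-07). Of 11 anchoring protein genes, which hold protein kinase A at its targets, 2 were higher, Akap5 (0.26 ± 0.06) and Akap12 (0.31 ± 0.07), and 3 were lower, whose calls each ended without some single animals. Of 8 genes of the CREB family and its coactivators 3 were lower by small amounts, Crtc1 (-0.18 ± 0.05), Crtc2 (-0.15 ± 0.05) and Creb1 (-0.12 ± 0.04), and these calls ended in 1, 5 and 8 of the 12 fits without 1 animal.

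Of the pathway genes, 3 of 77 passed for sire treatment in dorsal males, where 1.78% of all genes did, all 3 lower in nicotine-sired animals. Gnal, an alpha subunit of the stimulatory class, had 104.2, 110.1 and 104.4 CPM in nicotine-sired males A, B and C, against 137.9, 133.9 and 134.7 CPM in saline-sired males, with a log2 fold change of -0.35 ± 0.07 (adjusted p = 0.0287). The other 2 were the anchoring protein genes Akap9 (-0.40 ± 0.09, adjusted p = 0.0366) and Akap12 (-0.83 ± 0.17, adjusted p = 0.0370). Groups of nicotine-sired and saline-sired males did not overlap for any of the 3. That is no separate support, because the 3 were picked by their test on these same libraries. How many of all genes were likewise apart was not counted. The calls ended in 6, 8 and 8 of the 12 fits that left 1 animal out, for Gnal, Akap9 and Akap12 in that order. With the replicate letter as a block the fold changes stayed at -0.35, -0.40 and -0.83, at adjusted p of 0.0628, 0.0608 and 0.0926. The antisense covariate gave adjusted p of 0.0625 for Gnal, 0.0883 for Akap9 and 0.0393 for Akap12. Without the low-count filter the call for Akap12 ended (adjusted p = 0.0514). Without the libraries rich in choroid plexus the fold changes were -0.35, -0.38 and -1.15 for Gnal, Akap9 and Akap12. Those are given without a test because each nicotine-sired dorsal group then holds 1 library. In ventral males, where 3.21% of all genes passed, 1 of 77 did, Akap12 at -0.41 ± 0.10 (adjusted p = 0.0444). That call ended in 8 of the 12 fits that left 1 animal out. It also ended with the replicate block (adjusted p = 0.0554) and with the choroid plexus covariate (adjusted p = 0.0561). The antisense ratio, the counts of noncoding genes relative to the coding genes opposite them, moved with that group. It was 0.383 to 0.491% in ventral nicotine-sired males and up to 0.322% elsewhere in ventral hippocampus. With that ratio as a covariate the log2 fold change was -0.36 and its standard error rose to 0.32 (adjusted p = 0.950), and its part in the result was not tested further. In the 4 other comparisons of sire treatment 0 of 77 passed.

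The cyclases differed in the genes they varied with. Pearson's r was taken over the 24 libraries on log2 CPM for each cyclase against 13528 protein-coding genes, as a description in which the points share regions, animals and groups. Adcy1 was most like Dusp4, a MAP kinase phosphatase (r = 0.961), and the synaptotagmin Syt7 (0.948), and Dusp4 stayed first when group means were subtracted (0.816). Adcy2 was most like Tspan5 (0.938) and then Adcy1 (0.929). Adcy3 was most like Bri3bp both with (0.925) and without (0.961) that subtraction. Adcy5 was most like Frmpd3 (0.963) and Sdc3 (0.961), Adcy6 like Ptprf (0.936), and Frmpd3 was second for Adcy6 (0.933). Adcy8 was most like Camk2d, a subunit of calcium and calmodulin-dependent kinase II (0.924), and Adcy9 like Fry (0.932), which rose to 0.958 after group means were subtracted. Adcy7 had the weakest match, Cnnm1 (0.762). With group means subtracted, the closest gene changed for the other 5 members: it was Mical2 for Adcy2 (0.846), Caskin2 for Adcy5 (0.906), Mrgpre for Adcy6 (0.851), Cdk7 for Adcy7 (0.796) and L3mbtl3 for Adcy8 (0.901). Adcy1 was then no longer among the 3 closest to Adcy2, nor Frmpd3 among those of Adcy5 or Adcy6.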

How the data were processed

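Frozen ventral and dorsal hippocampus gave stranded mRNA libraries of 150 bp single-end reads, per the labels' protocols. Per the submitters' processing notes, the tools were TopHat2 2.1.0, Cufflinks and Cuffdiff 2.2.1.3 and the builds mm10 and GRCm38, with no roles stated. The authors deposited raw read counts per Ensembl gene. The sources used here do not name the counting tool or its strand setting, so reads of genes that overlap on opposite strands may not be separated. GENCODE M21 (GRCm38), which held 51719 of the 51912 identifiers, gave positions and exon lengths.

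Tests of these counts used edgeR 4.0.16 in R 4.3.3 (TMM, filterByExpr by group, robust quasi-likelihood F test, two-sided, Benjamini-Hochberg over all genes tested, threshold 0.05). Sire treatment was tested within a region (19224 ventral and 19130 dorsal genes) and regions over all 24 libraries (19849 genes). CPM and RPKM used TMM-scaled library sizes. Standard errors came from the fold change and its F statistic. Scripts were tested on simulated data.

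Ventral and dorsal libraries with the same title prefix come from 1 animal and so pair. Over the 12 animals, their deviations from group means had a median correlation of 0.293, from -0.135 to 0.730, with 8 over 0.1. The members and lists were chosen with earlier results of these data known. All members were named, and up to 3 genes per pathway list and comparison, those of smallest p past the threshold, as well as up to 3 genes of like pattern per member.

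Settings varied were the size factors (DESeq2-style), the low-count filter, the test (DESeq2 1.42.0, Wald), replicate blocks, covariates for choroid plexus markers and for the antisense ratio, and each animal left out. Chosen after seeing the data was leaving out the 8 libraries in which 13 choroid plexus markers averaged a log2 CPM above 2.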

Additional observations from a re-analysis of the deposited data

Results flagged for a closer look

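Among the 77 cyclic AMP pathway genes tested, 2 anchoring protein genes differed between the sexes in their response to sire treatment in dorsal hippocampus. This was by the test of the difference itself in edgeR, which 2.24% of all genes passed. None of the 8 cyclases did. For Akap12 the female minus male log2 fold change was 1.32 ± 0.25 (adjusted p = 0.0239). Its levels were 22.7, 17.6 and 18.1 CPM in nicotine-sired females A, B and C, against 13.3, 11.2 and 17.4 CPM in saline-sired females, and 13.6, 16.7 and 12.02 CPM in nicotine-sired males, against 21.7, 27.9 and 25.8 CPM in saline-sired males. The groups did not overlap in either sex, though in females only by 17.6 against 17.4 CPM, and they lay in opposite orders. That is no separate support, because the gene was picked by its test on these same libraries. How many of all genes were likewise apart in both sexes was not counted. For Akap9 the difference was 0.53 ± 0.12 (adjusted p = 0.0454), with 42.4, 49.7 and 45.3 CPM in nicotine-sired females, against 45.2, 43.5 and 38.0 CPM in saline-sired females, and 42.0, 41.3 and 39.1 CPM in nicotine-sired males, against 58.6, 50.1 and 52.7 CPM in saline-sired males. The call for Akap12 ended in 6 and that for Akap9 in 11 of the 12 fits that left 1 animal out. With the replicate letter as a block the differences stayed at 1.32 for Akap12 and 0.53 for Akap9, with adjusted p of 0.0608 and 0.0656. For Akap9 the call also ended with the choroid plexus covariate (0.47, adjusted p = 0.0689) and the antisense covariate (0.53, adjusted p = 0.0623), under which Akap12 kept its call. Without the libraries rich in choroid plexus the difference was 2.04 for Akap12 and 0.32 for Akap9, values given without a test because each nicotine-sired dorsal group then holds 1 library.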

How the results depend on the processing

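For the 8 cyclases, the count called between regions was 6 by the test reported and 7 with the animal as a replicate block. It was 5 without the libraries rich in choroid plexus and 6 to 7 with 1 animal left out. In each comparison of sire treatment 0 were called under every setting counted. The setting without choroid-rich libraries is not counted for sire treatment, because some groups then hold 1 library. No fold change that passed changed its sign. Of all 960 values with 1 animal left out, passed or not, 83 that did not pass changed sign. Of all 560 values under the other settings, 33 that did not pass changed sign. The counts over all genes depended more on the processing, and the cause was not tested. Called genes in dorsal hippocampus over both sexes numbered 15, with 55 without the low-count filter, 196 by DESeq2, 6 with the replicate block, 1 with the antisense covariate, 687 without choroid-rich libraries and 0 to 19 without 1 animal. Dorsal males had 341, with 874 by DESeq2, 164 with the block, 147 with the antisense covariate and 87 to 624 without 1 animal. Dorsal females had 6, with 14 without the filter, 275 by DESeq2, 2 with the block, 2 with the choroid covariate, 3 with the antisense covariate, 1845 without choroid-rich libraries and 0 to 12 without 1 animal. The dorsal sex difference had 428, with 1272 by DESeq2, 217 with the block, 1858 without choroid-rich libraries and 76 to 837 without 1 animal. Ventral hippocampus over both sexes had 337, with 560 without the filter, 697 by DESeq2, 207 with the choroid covariate, 1 with the antisense covariate, 101 without choroid-rich libraries and 176 to 457 without 1 animal. Ventral males had 617, with 1 with the antisense covariate and 284 to 671 without 1 animal. Ventral females had 6, with 99 without the filter, 291 by DESeq2, 27 with the block, 90 with the choroid covariate, 1 with the antisense covariate, 50 without choroid-rich libraries and 0 to 114 without 1 animal. The ventral sex difference had 205, with 533 by DESeq2, 1 with the antisense covariate, 103 without choroid-rich libraries and 84 to 463 without 1 animal. Between regions 5803 genes were called, with 3311 without choroid-rich libraries and 4706 to 6178 without 1 animal. The replicate letters do not pair animals of different groups. For each letter in each region, the median correlation of their deviations lay between -0.181 and 0.015. Without choroid-rich libraries 3 of the 8 groups kept 1 library, assumed to vary like the others. The fewest reads limit Adcy7 most, at 54 to 105 a library.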
